A study of Mus musculus with 2 samples.

Results

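The reticulon family of the mouse, the 4 genes Rtn1, Rtn2, Rtn3 and Rtn4, was followed through long-read RNA sequencing of hippocampus. Members were taken by gene symbol from both tables of transcript models, with every model of each gene, which gave 4 of the 18595 annotated genes with a read. They held 71 of 133886 models in replicate 1 and 82 of 133393 models in replicate 2. The tissue was hippocampus of adult C57BL/6 mice (strain B6NCrl), 6 months of age and described as male, although the field for sex is marked as not collected. There was 1 group of 2 libraries, replicate 1 and replicate 2, with no treatment, mutation or transgene in the labels and no second condition. The libraries are separate biosamples that share a donor identifier, and nothing states whether they came from separate animals. Every p-value below therefore sets library against library, and what separates the libraries could be of technical origin. Those of Fisher's exact test weigh a gap against counting error alone. Only the exact test of edgeR takes a spread between the libraries into account.

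Reticulons are membrane proteins of the endoplasmic reticulum. Their carboxy-terminal reticulon homology domain inserts into the membrane as hairpins and bends it, which keeps the tubules of the organelle narrow. In front of that domain each gene can place amino-terminal parts of very different length, through alternative promoters and alternative internal exons. Rtn4 encodes the Nogo proteins, of which Nogo-A is an inhibitor of axon growth made by oligodendrocytes and neurons, and Nogo-C is the short form without the inhibitory amino-terminal part. Rtn3 binds the amyloid-processing protease BACE1, and its long form is a receptor for the autophagy of reticulum tubules. Rtn1 is the neuroendocrine-specific protein of neurons, and RTN2 mutations in humans cause a hereditary spastic paraplegia.

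The shared carboxy-terminal part was visible in the exon structure of all 4 genes. GENCODE M21, on the build mm10 (GRCm38), gives each of them a run of 5 internal exons of 208, 139, 70, 47 and 59 bases, 523 bases in all, with the same lengths in every gene. Without gaps, 197 of these 523 positions (37.7%) held the same base in all 4 genes. Between pairs, Rtn1 and Rtn4 were identical at 65.2% of the positions, Rtn1 and Rtn3 at 64.4%, and Rtn3 and Rtn4 at 63.7%. Rtn2 was the most distant, with 59.7% against Rtn1, 52.2% against Rtn3 and 51.8% against Rtn4. The exon of 208 bases that opens the run is printed here for each gene, since the exon joined in front of it is used below. That exon tells short forms from long ones. It does not separate Rtn4-203 from Rtn4-205, which share their long exon. Nor does it separate Rtn3-202 from Rtn3-205, whose exons in front of the run end at the same donor. Capitals mark the 79 positions (38.0%) at which all 4 genes hold the same base, and the sequences are those of the annotated GENCODE M21 transcripts, on the strand of the gene. They lie at chr12:72223332-72223539 (minus strand) in Rtn1, chr7:19293076-19293283 (plus strand) in Rtn2, chr19:7434931-7435138 (minus strand) in Rtn3 and chr11:29733633-29733840 (plus strand) in Rtn4.
Rtn1: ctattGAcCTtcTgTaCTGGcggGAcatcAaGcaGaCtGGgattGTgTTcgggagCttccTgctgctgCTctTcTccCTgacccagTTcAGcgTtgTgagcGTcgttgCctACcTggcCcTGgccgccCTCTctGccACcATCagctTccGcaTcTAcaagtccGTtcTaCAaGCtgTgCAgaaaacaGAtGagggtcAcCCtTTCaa
Rtn2: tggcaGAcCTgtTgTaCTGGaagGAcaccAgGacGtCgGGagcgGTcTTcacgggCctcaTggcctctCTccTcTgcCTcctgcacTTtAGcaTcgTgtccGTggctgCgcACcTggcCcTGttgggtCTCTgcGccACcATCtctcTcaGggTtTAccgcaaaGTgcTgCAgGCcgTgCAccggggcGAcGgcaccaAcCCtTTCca
Rtn3: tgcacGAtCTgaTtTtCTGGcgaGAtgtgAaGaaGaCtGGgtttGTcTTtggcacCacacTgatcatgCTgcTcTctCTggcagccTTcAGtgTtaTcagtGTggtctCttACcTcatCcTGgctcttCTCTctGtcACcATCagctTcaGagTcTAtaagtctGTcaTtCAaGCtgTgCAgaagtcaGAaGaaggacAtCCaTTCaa
Rtn4: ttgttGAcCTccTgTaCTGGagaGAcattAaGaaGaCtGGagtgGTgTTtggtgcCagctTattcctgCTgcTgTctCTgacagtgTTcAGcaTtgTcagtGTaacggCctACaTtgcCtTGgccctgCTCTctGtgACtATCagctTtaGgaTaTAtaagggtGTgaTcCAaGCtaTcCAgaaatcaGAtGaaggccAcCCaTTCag

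Levels are given in CPM, a gene's reads over all reads of its library, scaled to 1000000 reads. A long read was counted once whatever its length, so CPM is not divided by length, and a mean ± SD is taken over both libraries (n = 2). Reads of pieces of a transcript were counted too, so CPM need not equal a count of transcripts. Ranges in brackets are exact 95% Clopper-Pearson limits of the counts or follow from them. They, and the floor of 3 reads set for a gene or form with none, cover counting error only. Replicate 1 had 1330153 reads and replicate 2 had 1366252. Markers of neurons, oligodendrocytes and astrocytes were all present, with sums over 5 genes each of 5022, 5082 and 3235 CPM in replicate 1 and of 6215, 6846 and 3525 CPM in replicate 2. The libraries stood apart in choroid plexus markers, of which 5 of 5 were higher in replicate 1 (sum 13898 CPM in replicate 1 and 311 CPM in replicate 2, with Kcne2 at 0 reads in replicate 2). Of the oligodendrocyte markers 3 of 5, and of the neuron markers 4 of 5, were higher in replicate 2. Of the astrocyte markers 1 was higher in each library, of the endothelial ones 1 was higher in replicate 2, and of the microglial ones 0 of 5 were called. These are calls of the gene-level test described below (Fisher's exact test), which over all genes called 2.56% higher in replicate 1 and 3.38% in replicate 2. The part of these differences in the results below was not tested. In such a tissue, fewer cells of a type and less RNA per cell cannot be told apart.

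Rtn1 and Rtn3 were abundant and Rtn4 and Rtn2 were low. Rtn1 (ENSMUSG00000021087.18, chromosome 12, 72211752 to 72409054, minus strand) had 1950 reads in replicate 1 and 2184 reads in replicate 2, which gave 1466 CPM (1402 to 1532) and 1599 CPM (1532 to 1667). Rtn3 (ENSMUSG00000024758.15, chromosome 19, 7425901 to 7483281, minus strand) had 761 and 871 reads, or 572 CPM (532 to 614) in replicate 1, against 638 CPM (596 to 681) in replicate 2. Rtn4 (ENSMUSG00000020458.16, chromosome 11, 29692947 to 29744331, plus strand) had 99 and 85 reads, or 74.4 CPM (60.5 to 90.6) in replicate 1, against 62.2 CPM (49.7 to 76.9) in replicate 2. Rtn2 (ENSMUSG00000030401.16, chromosome 7, 19282624 to 19296160, plus strand) had 29 and 25 reads, or 21.8 CPM (14.6 to 31.3) in replicate 1, against 18.3 CPM (11.8 to 27.0) in replicate 2. The intervals of neighbouring genes in this order did not overlap in either library. The level of Rtn4 rests largely on pieces, since 58.6% and 56.5% of its reads were unspliced. Without the genomic class and incomplete matches its mean fell from 68.3 to 18.4 CPM, and that of Rtn2 from 20.1 to 7.12 CPM.

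The whole family held 2225 ± 129 CPM. Of its reads, Rtn1 took 68.8% ± 0.225, Rtn3 27.2% ± 0.505, Rtn4 3.09% ± 0.567 and Rtn2 0.906% ± 0.164. For each read of Rtn3 there were 2.56 reads of Rtn1 in replicate 1 and 2.51 in replicate 2. Per length, as CPM divided by the read-weighted mean length of the gene's models in kilobases, the level was 978 ± 6.64 for Rtn1, 233 ± 19.9 for Rtn3, 58.0 ± 10.3 for Rtn4 and 17.0 ± 2.65 for Rtn2. These lengths include pieces, so this scale is not a level per full transcript. For Rtn4 they were 1139 bases in replicate 1 and 1227 in replicate 2, below the 1773 bases of Rtn4-201. The order of the 4 genes was the same on both scales and in both libraries, and the gaps between neighbours exceeded the spread between the libraries.

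**Figure D1:**
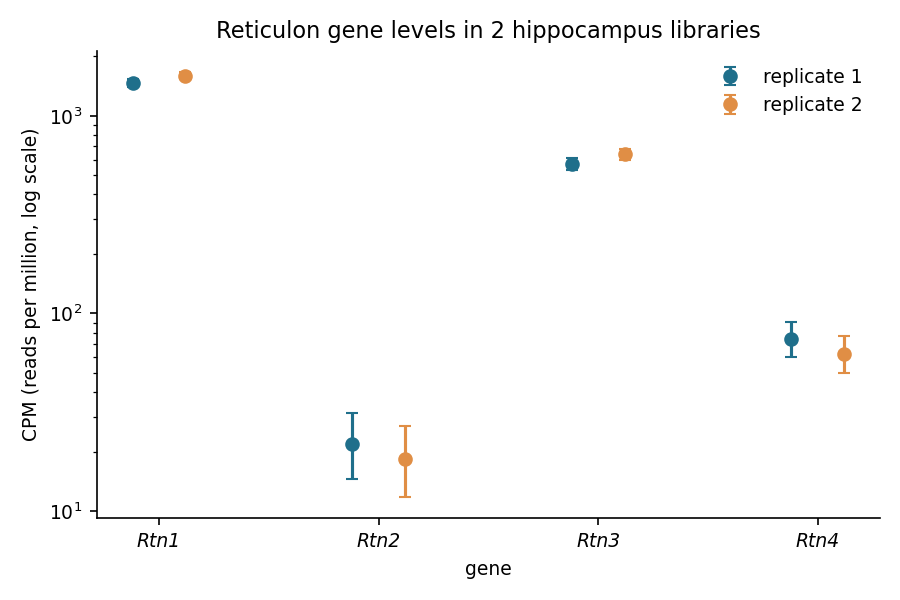
Level of each reticulon gene in CPM, on a log axis, in replicate 1 (left point of each pair) and replicate 2 (right point), with exact 95% intervals of the counts as bars. Rtn1 lies at 1466 and 1599 CPM, Rtn3 at 572 and 638 CPM, Rtn4 at 74.4 and 62.2 CPM and Rtn2 at 21.8 and 18.3 CPM, and the points of a pair lie closer together than those of different genes.

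None of the 4 genes passed the test between the libraries. The log2 ratio of replicate 1 over replicate 2 was -0.12 (-0.21 to -0.04) for Rtn1 and -0.16 (-0.30 to -0.01) for Rtn3, with adjusted p = 0.0804 and 0.230 (two-sided Fisher's exact test, Benjamini-Hochberg over 11891 genes). The low genes had ratios of the opposite sign, 0.26 (-0.17 to 0.69) for Rtn4 and 0.25 (-0.57 to 1.09) for Rtn2, with adjusted p = 0.645 and 0.911 by the same exact test. Over all genes the test called 707 of 11891 (5.95%), 305 of them (2.56%) higher in replicate 1 and 402 (3.38%) higher in replicate 2, and the median log2 ratio was -0.05. With edgeR's TMM library sizes that split was 352 and 305. With the spread between the libraries taken into account, in the exact test of edgeR, all 4 adjusted p-values were 1 and 50 genes (0.42%) were called. That spread was estimated from the same 2 libraries that were compared. It therefore includes the differences under test, and the absence of calls there cannot decide whether the genes differ. Among the settings tried, Rtn1 was called in 1. That setting left out incomplete matches, which follow part of an annotated transcript, and the genomic class, which does not follow the splicing of the gene (log2 ratio -0.17, adjusted p = 0.0192, Fisher's exact test).

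The genes nearest to each reticulon in the pair of log2(CPM + 1) values, by Euclidean distance over 2 libraries and 11891 genes, were Chn1 and Ndrg2 for Rtn1, at distances of 0.03 and 0.06. Tmsb4x and Cck lay nearest to Rtn3, at 0.01 and 0.03. Nfe2l1 and Tef lay nearest to Rtn4, at 0 and 0.02. Abcb10 and Chd2 had the same read counts as Rtn2 in both libraries, and so a distance of 0. Distances over 2 libraries of 1 tissue describe a shared level and nothing else.

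Rtn1 was read mainly as its short form. Rtn1-201, the transcript of Rtn1-C with 7 exons, 1544 bases and a protein of 208 residues, had 1425 reads in replicate 1 and 1646 reads in replicate 2. Rtn1-202, the transcript of Rtn1-A with 9 exons, 3629 bases and 780 residues, had 67 and 114 reads. The forms have different first exons: that of Rtn1-A lies at the far end of the gene and is followed by internal exons of 774 and 762 bases, while that of Rtn1-C, of 196 bases, lies in front of the 208-base exon. Of the spliced reads of the gene, 1433 of 1709 (83.9%, 82.0 to 85.6) in replicate 1 and 1657 of 2052 (80.8%, 79.0 to 82.4) in replicate 2 began in the first exon of Rtn1-C. The first exon of Rtn1-A began 68 (3.98%, 3.10 to 5.02) and 118 (5.75%, 4.78 to 6.85) of them. Neither share passed the exact test between the libraries (adjusted p = 0.516 and 0.472, Fisher's exact test over 10958 first donors, of which 61, or 0.557%, were called, 0.31% higher in replicate 1 and 0.246% higher in replicate 2).

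Many reads of Rtn1-A were not read up to their first exon. Its exon 2 began 45 and 69 reads, and its exon 3 began 50 and 55, so that reads with any exon of Rtn1-A alone made up 9.89% (8.51 to 11.4) of the spliced reads in replicate 1 and 12.3% (10.9 to 13.8) in replicate 2. Among reads with a join to the 208-base exon, the exon in front of it tells the forms of Rtn1 apart. It was the first exon of Rtn1-C in 1433 of 1608 reads (89.1%, 87.5 to 90.6) in replicate 1 and 1656 of 1918 reads (86.3%, 84.7 to 87.8) in replicate 2. It was exon 3 of Rtn1-A in 168 (10.4%, 8.995 to 12.05) and 249 reads (13.0%, 11.5 to 14.6). In 1 read of replicate 2 the first exon of Rtn1-A was joined straight to the 208-base exon. Rtn1-A is longer than Rtn1-C, and the part of transcript length in these shares was not tested.

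The remaining incomplete Rtn1 models form a ladder through the shared exons and cannot be assigned to a form. The model that began in the 208-base exon had 47 and 68 reads, and those that began in the next 4 exons of the run had 15 and 21, 9 and 20, 13 and 13, and 15 and 7 reads. None of these 5 first donors passed the test between the libraries. A pair of unannotated models reached 10 reads. The one that left the first exon of Rtn1-C 6 bases before the annotated donor had 4 and 10 reads. The other had 5 and 9 reads and a donor at position 72408202, which lies 109 bases after that of the first exon of Rtn1-A. Its model starts at 72408311, the last base of that first exon, and so shares no more than this base with it.

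**Figure D2:**
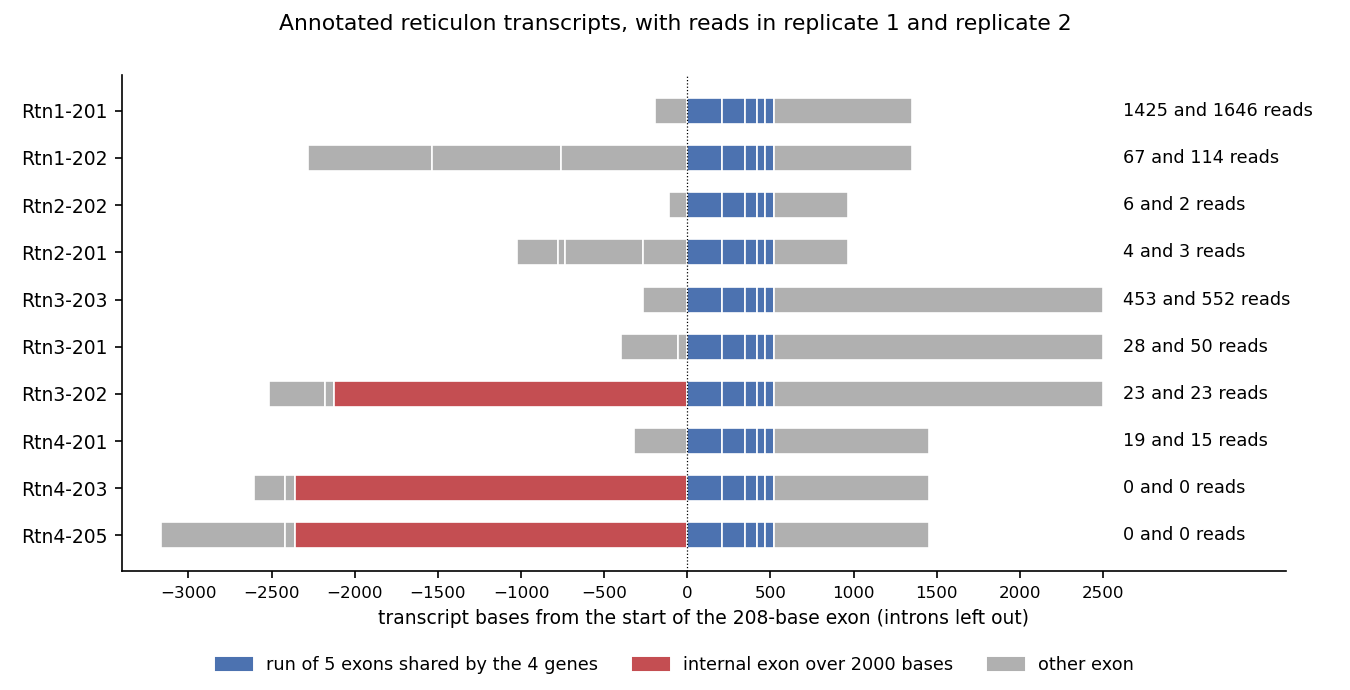
Annotated exons of 10 reticulon transcripts, drawn to scale in transcript bases without introns and aligned at the start of the 208-base exon, with the reads of each transcript in replicate 1 and replicate 2 at the right. The 5 blue exons have the same lengths in all 4 genes, the red internal exons belong to Rtn3-202, Rtn4-203 and Rtn4-205, and the most read transcript of Rtn1, Rtn3 and Rtn4 is the shortest one drawn for that gene.

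The start sites of Rtn1-C and Rtn1-A lie in sequence of different composition, which is why both promoters are shown. RefSeq windows (GRCm38.p6) of 250 bases before and 50 bases from the start were used, of which 32851 were available for all genes, with a median of 52.7% G and C and 7 CG dinucleotides. The window of Rtn1-C, chr12:72236678-72236977 (minus strand), had 73.3% G and C, above 94.5% of all windows, and 43 CG dinucleotides. That of Rtn1-A, chr12:72409005-72409304 (minus strand), had 46.3% G and C, above 26.2% of all windows, and 3 CG dinucleotides. Capitals mark matches to the GC box GGGCGG on either strand, overlapping matches included, which 35.7% of all windows held and which occurred 3 times in the Rtn1-C window and 0 times in the Rtn1-A window. The TATA box letters TATAAA, searched on both strands and held by 13.6% of all windows, were in none of the 8 windows of the 4 genes.
Rtn1-201 promoter: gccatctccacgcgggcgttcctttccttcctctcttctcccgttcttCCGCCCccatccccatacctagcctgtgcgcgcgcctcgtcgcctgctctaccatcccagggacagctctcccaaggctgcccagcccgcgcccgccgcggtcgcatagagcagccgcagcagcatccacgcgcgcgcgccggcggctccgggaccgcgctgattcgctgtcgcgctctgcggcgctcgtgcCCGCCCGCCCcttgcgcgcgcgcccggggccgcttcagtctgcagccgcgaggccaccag
Rtn1-202 promoter: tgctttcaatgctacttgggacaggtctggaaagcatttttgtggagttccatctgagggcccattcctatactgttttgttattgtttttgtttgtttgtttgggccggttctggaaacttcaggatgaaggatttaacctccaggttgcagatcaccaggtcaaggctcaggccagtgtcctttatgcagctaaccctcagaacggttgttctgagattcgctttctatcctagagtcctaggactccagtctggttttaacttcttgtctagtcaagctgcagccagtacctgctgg

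Rtn3 was also read mainly as the form with its shortest protein. Rtn3-203, with 7 exons, 2762 bases and 237 residues, had 453 reads in replicate 1 and 552 reads in replicate 2. Rtn3-201, which adds an exon of 57 bases, had 28 and 50 reads. Rtn3-202, which adds both the 57-base exon and a long exon of 2124 bases and encodes 964 residues in 5013 bases, had 23 reads in each library. Rtn3-205, a form with an internal exon of 1161 bases, had 3 and 2 reads. Unlike Rtn1, all of these forms share 1 first exon, which began 535 of 593 spliced reads (90.2%, 87.5 to 92.5) in replicate 1 and 664 of 719 (92.4%, 90.2 to 94.2) in replicate 2.

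The exon joined in front of the 208-base exon of Rtn3 was the first exon in 458 of 535 reads (85.6%, 82.3 to 88.5) in replicate 1 and 563 of 655 reads (86.0%, 83.1 to 88.5) in replicate 2. It was the long exon, or the 1161-base exon of Rtn3-205 that ends at the same donor, in 49 (9.16%, 6.85 to 11.9) and 39 reads (5.95%, 4.27 to 8.05), and the 57-base exon in 28 (5.23%, 3.51 to 7.48) and 51 reads (7.79%, 5.85 to 10.1). Among reads that either held an exon or skipped it, the long exon (chromosome 19, 7456300 to 7458423) was present in 28 of 514 (5.45%) in replicate 1 and 25 of 643 (3.89%) in replicate 2. The 57-base exon (7467811 to 7467867) was present in 77 of 535 (14.4%) and 100 of 667 (15.0%). Both had an adjusted p of 1 (Fisher's exact test over 2015 internal exons, of which 9, or 0.447%, were called, 0.149% higher in replicate 1 and 0.298% higher in replicate 2). Of the tested internal exons with at least 1000 bases, 0 of 10 were called. The part of transcript length in the shares of the Rtn3 forms was not tested.

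Not all reads that reached the long exon of Rtn3 crossed it. In replicate 1, 28 of the 46 reads that entered it went on to the 208-base exon (60.9%, 45.4 to 74.9), and in replicate 2 it was 25 of 46 (54.3%, 39.0 to 69.1). Models that entered it and ended inside it had 18 and 21 reads, and models that began inside it and left it had 18 and 12 reads. Of the models that began in the shared exons, those with at least 10 reads over both libraries had 9 and 15 reads from the 208-base exon and 11 and 8, 7 and 9, and 10 and 6 reads from the exons of 139, 70 and 59 bases.

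Model shares of Rtn3 showed a called difference that came with the class given to unspliced reads. Within the last exon, which begins at position 7427875 on the minus strand, 161 unspliced reads of replicate 1 were classed as incomplete matches, on a model of 1975 bases that spans the exon. In replicate 2, 148 unspliced reads were classed as genomic, on a model of 1643 bases that shares its 3′ end at position 7425901. The genomic class stays out of this test, so Rtn3-203 had a share of 453 of 754 reads (60.1%) in replicate 1 and 552 of 719 (76.8%) in replicate 2 (adjusted p = 7.50e-10, Fisher's exact test over 15194 models, of which 663, or 4.36%, were called, 2.23% with the higher share in replicate 1 and 2.13% in replicate 2). The unspliced model had 161 of 754 against 0 of 719 (adjusted p = 2.03e-48, the same exact test). Among spliced reads alone, a setting chosen after seeing the data, Rtn3-203 had 76.4% in replicate 1 and 76.8% in replicate 2 with an adjusted p of 1 (Fisher's exact test over 13696 models, of which 87, or 0.635%, were called). No other model of the 4 genes passed the test in either setting.

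Rtn4 reads came from the Nogo-C start or from pieces of the gene, and no read was assigned to a complete Nogo-A transcript. Rtn4-201, the transcript of Nogo-C with 7 exons, 1773 bases and 199 residues, had 19 reads in replicate 1 and 15 reads in replicate 2 and was the 1 annotated Rtn4 transcript with reads. Its first exon, 29718563 to 29718882, began 22 of 41 spliced reads (53.7%, 37.4 to 69.3) in replicate 1 and 16 of 37 (43.2%, 27.1 to 60.5) in replicate 2 (adjusted p = 1, Fisher's exact test). Rtn4-205, the transcript of Nogo-A with 9 exons, 4618 bases and 1162 residues, and Rtn4-203, which has another first exon and 1046 residues, had 0 reads. The floor of 3 reads allows complete reads of them a share of up to 7.32% of the spliced reads of Rtn4 in replicate 1 and 8.11% in replicate 2, which sets no limit on incomplete reads of these transcripts.

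The long exon of Nogo-A, of 2361 bases (29706410 to 29708770) and also part of Rtn4-203, was nevertheless read from both of its ends. Spliced reads with any part of it numbered 14 of 41 (34.1%, 20.1 to 50.6) in replicate 1 and 17 of 37 (45.9%, 29.5 to 63.1) in replicate 2. Reads that entered it from the 57-base exon or an upstream exon and ended inside it numbered 6 in replicate 1 and 10 in replicate 2. Reads that began inside it and continued to the 208-base exon numbered 8 and 7. None crossed it, 0 of 6 (0 to 45.9%) in replicate 1 and 0 of 10 (0 to 30.8%) in replicate 2, against the 60.9% and 54.3% of the long exon of Rtn3. These intervals touch that of Rtn3 in replicate 1 and lie below it in replicate 2, and the difference was not tested. The upstream first exons began 4 (9.76%, 2.72 to 23.1) and 8 (21.6%, 9.83 to 38.2) of the spliced reads.

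Among reads with a join to the 208-base exon, the exon in front of it separates Nogo-C from forms with the long exon. It was the first exon of Nogo-C in 22 of 30 reads (73.3%, 54.1 to 87.7) in replicate 1 and 16 of 23 reads (69.6%, 47.1 to 86.8) in replicate 2. It was the long exon, which Rtn4-205 and Rtn4-203 share, in 8 of 30 (26.7%, 12.3 to 45.9) and 7 of 23 reads (30.4%, 13.2 to 52.9). These joins leave out 6 spliced reads of replicate 1 and 10 of replicate 2 that ended inside the long exon. They also leave out 25 and 22 unspliced reads within it. The shares therefore depend on where reads end and do not give the balance of Nogo-A and Nogo-C over all reads. Nogo-B, in which an upstream first exon or the 57-base exon is joined straight to the 208-base exon, was not detectable at this depth, with 0 of 30 (0 to 11.6%) and 0 of 23 reads (0 to 14.8%). Over all genes, models of 4000 bases or more held 5.71% of the reads in replicate 1 and 6.04% in replicate 2, and Rtn3-202, with its 5013 bases, had 23 reads assigned to its complete chain of exons in each library. The part of transcript length in the absence of complete Nogo-A reads was not tested.

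The models that entered the long exon of Rtn4 from upstream shared 1 end, at position 29707247, which lies 838 bases into the exon. Over both libraries 10 models ended there and 4 models started there, and those that started there included ones read on to the 208-base exon. Those that ended there included an unspliced model from the start of the exon with 24 reads in replicate 1 and 21 in replicate 2. The exon goes on for 1523 bases. The sequence around this end, chr11:29707218-29707277 (plus strand), is shown because every read that entered the long exon from upstream stopped there in the deposited models. Capitals mark the only run of 9 A in the exon, which begins 17 bases after the end, and 22 of the 30 bases after the end are A, as many as in 0.257% of the windows of 30 bases in that exon. The longest run of A in the long exon of Rtn3 has 6 bases. A model's end in these files need not be the end of each of its reads, and the part of this sequence in where the models end was not tested.
Rtn4 long exon, model end: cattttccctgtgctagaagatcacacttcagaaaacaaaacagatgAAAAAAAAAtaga

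The start used by Nogo-C and that of Rtn4-203 differed in composition in the order opposite to that of the short and long forms of Rtn1. The window of Nogo-C, chr11:29718313-29718612 (plus strand), had 39.7% G and C, above 9.48% of all windows, and 1 CG dinucleotide. That of Rtn4-203, chr11:29693524-29693823 (plus strand), which overlaps the first exon of Rtn4-205, had 75.3% G and C, above 96.4% of all windows, and 35 CG dinucleotides. The window next to the start that Rtn4-205 shares with Rtn4-202, chr11:29692648-29692947 (plus strand), is not shown. It was less extreme, with 62.3% G and C, above 76.2% of all windows, 15 CG dinucleotides and 4 GC boxes. The windows of Nogo-C and Rtn4-203 are shown with GC boxes in capitals, of which there were 0 in the Nogo-C window and 1 in that of Rtn4-203.
Rtn4-201 promoter: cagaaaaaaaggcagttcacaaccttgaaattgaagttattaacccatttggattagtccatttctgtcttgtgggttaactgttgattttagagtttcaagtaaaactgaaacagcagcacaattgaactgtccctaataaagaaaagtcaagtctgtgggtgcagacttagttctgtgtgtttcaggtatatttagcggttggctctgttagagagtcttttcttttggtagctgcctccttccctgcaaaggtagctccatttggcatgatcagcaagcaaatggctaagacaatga
Rtn4-203 promoter: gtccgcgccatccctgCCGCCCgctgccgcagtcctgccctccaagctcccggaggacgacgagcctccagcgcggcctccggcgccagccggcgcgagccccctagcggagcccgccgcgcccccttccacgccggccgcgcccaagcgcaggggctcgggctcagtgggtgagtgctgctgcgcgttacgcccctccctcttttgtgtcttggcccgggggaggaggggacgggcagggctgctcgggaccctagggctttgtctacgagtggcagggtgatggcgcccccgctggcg

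Rtn2 had too few reads for most tests. Rtn2-201, with 10 exons and 471 residues, had 4 reads in replicate 1 and 3 reads in replicate 2, and Rtn2-202, a form with its own first exon and 204 residues, had 6 and 2 reads. The only model with at least 10 reads began in exon 3 of Rtn2-201, with 6 reads in each library (adjusted p = 1, Fisher's exact test). The exon joined to the 208-base exon was exon 4 of Rtn2-201 in 11 of 17 reads (64.7%, 38.3 to 85.8) in replicate 1 and 11 of 13 reads (84.6%, 54.6 to 98.1) in replicate 2. It was the first exon of Rtn2-202 in 6 of 17 (35.3%, 14.2 to 61.7) and 2 of 13 reads (15.4%, 1.92 to 45.4). The long form thus held more of these joins than the short one in both libraries, on 17 and 13 reads. The other 7 models that were spliced or unspliced pieces of the gene had at most 6 reads each over both libraries.

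**Figure D3:**
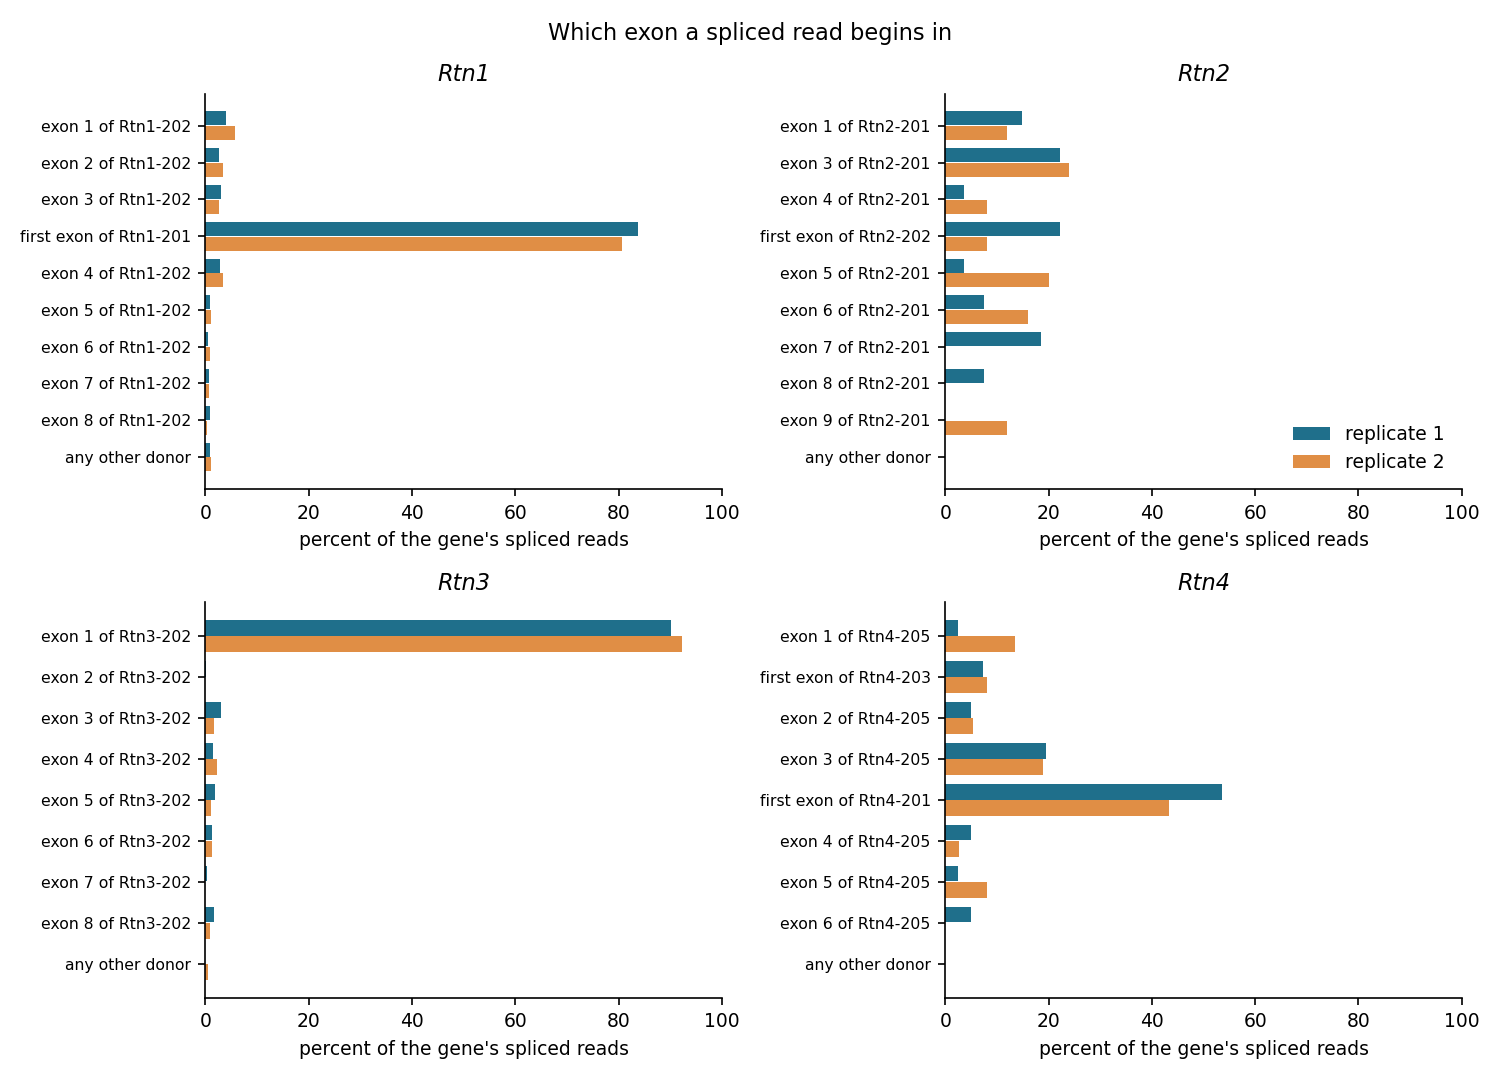
Percent of each gene's spliced reads that begin in a given exon, from the 5′ end at the top to the 3′ end at the bottom, for replicate 1 (upper bar) and replicate 2 (lower bar). Rtn1 and Rtn3 have a single tall bar, at 83.9% and 80.8% for the first exon of Rtn1-201 and at 90.2% and 92.4% for exon 1 of Rtn3-202. Reads of Rtn4 begin most often in the first exon of Rtn4-201, at 53.7% and 43.2%, and otherwise along the gene. Those of Rtn2 begin along the whole gene.

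The genes differed widely in how their reads were classed. Annotated transcripts held 76.5% (74.6 to 78.4) of Rtn1 reads in replicate 1 and 80.6% (78.9 to 82.2) in replicate 2, above the 66.3% and 70.1% of the whole libraries. For Rtn3, at 66.6% (63.1 to 69.97) and 71.99% (68.9 to 74.9), the intervals included the share of the library. They held 34.5% (17.9 to 54.3) and 20.0% (6.83 to 40.7) of Rtn2 reads, and 19.2% (11.97 to 28.3) and 17.6% (10.2 to 27.4) of Rtn4 reads. Unspliced reads of any class made up 58.6% (48.2 to 68.4) of Rtn4 reads in replicate 1 and 56.5% (45.3 to 67.2) in replicate 2, against 24.5% and 19.4% of all reads. Of these, 24 and 21 were the piece of its long exon, and 33 and 26 lay in its last exon, from 29742111 to 29742916.

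Rtn1 had a higher share of unspliced reads in replicate 1, at 241 of 1950 (12.4%, 10.9 to 13.9), than in replicate 2, at 132 of 2184 (6.04%, 5.08 to 7.13). This difference of 6.32 percentage points was called (adjusted p = 4.56e-10, Fisher's exact test over 3669 genes, chosen after seeing the data), as were 113 genes (3.08%), 99 (2.7%) with the higher share in replicate 1 and 14 (0.382%) in replicate 2. The median difference over these genes was 1.54 percentage points, and the unspliced share of the libraries as a whole moved the same way. All but 1 of these Rtn1 reads lay on a model of 538 or 537 bases at the end of the last exon, 72211752 to 72212289. On the opposite strand, 151 unspliced reads of replicate 1 and 73 of replicate 2 lay over the same bases, and whether the counting used strand is not given in the sources used here. Rtn3, at 22.1% and 17.5% (adjusted p = 0.265), and Rtn4 (adjusted p = 1) were not called by the same exact test, and Rtn2 had too few unspliced reads to be tested.

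**Figure D4:**
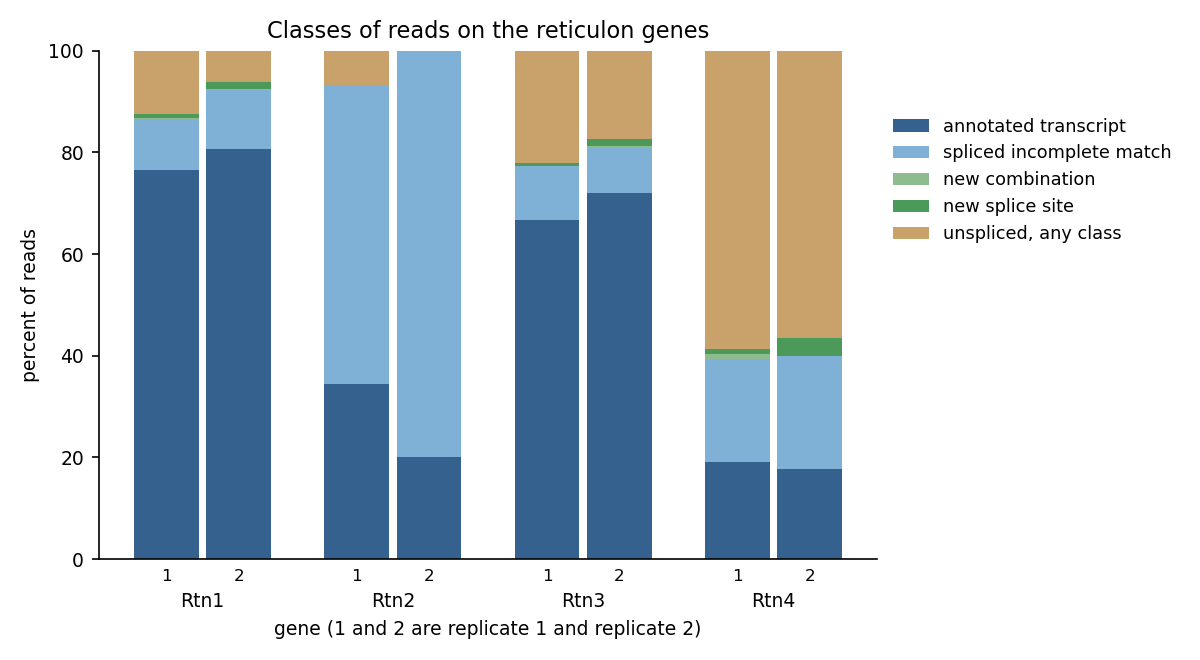
Percent of the reads of each gene in 5 classes, for replicate 1 (left bar of each pair) and replicate 2 (right bar). Annotated transcripts fill most of the bars of Rtn1 and Rtn3, incomplete matches those of Rtn2, and unspliced reads over 50% of those of Rtn4. In replicate 2, 1 spliced genomic read of Rtn1 is not drawn.

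Genes of the Nogo receptor pathway, which carries the signal of myelin inhibitors into neurons, were read in both libraries except Pirb. Reads fell on 12 of 12 genes, 9 had enough for the test, and 0 of these were called (Fisher's exact test, background 5.95%), although Rtn4rl1 and Rtn4rl2 had unadjusted exact p-values of 0.0145 and 0.0417 (adjusted p = 0.150 and 0.278). The myelin-associated glycoprotein Mag, another ligand of the receptor, had 107 ± 11.6 CPM, the coreceptor Lingo1 had 69.3 ± 4.46 CPM and the coreceptor Tnfrsf19 had 34.0 ± 7.75 CPM. The receptor Rtn4r itself had 18 and 20 reads (14.1 ± 0.782 CPM). The coreceptor Ngfr had 4 and 5 reads, the Nogo-A receptor S1pr2 had 8 and 1, and the immune receptor Pirb had 1 and 0, too few to be tested. Summed over the list, replicate 1 had 324 CPM, against 344 CPM in replicate 2, and the median log2 ratio of its 9 tested genes was -0.13, against -0.05 over all genes.

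Of the other genes that shape the endoplasmic reticulum, 3 passed the test between the libraries. All 19 had reads, 17 were tested and 3 were called, 1 with the higher level in replicate 1 and 2 in replicate 2, where the test called 5.95% of all genes (2.56% and 3.38% by direction). The median log2 ratio was -0.28 over the 17, against -0.05 over all genes. Reep5, a hairpin protein of the tubules, was at 444 CPM in replicate 1, against 508 CPM in replicate 2, and was not called (adjusted p = 0.164, Fisher's exact test). Arl6ip1, another hairpin protein, had 522 and 405 CPM (log2 ratio 0.37, adjusted p = 0.000418). Atl1, the atlastin that fuses tubules in neurons, was at 114 and 161 CPM (log2 ratio -0.50, adjusted p = 0.0199, Fisher's exact test). Retreg2, a reticulophagy regulator with a reticulon-like domain, had 62.4 and 97.3 CPM (log2 ratio -0.64, adjusted p = 0.0283). Bace1, the protease that Rtn3 binds, was at 51.1 CPM in replicate 1, against 64.4 CPM in replicate 2 (57.8 ± 9.40 CPM; log2 ratio -0.33, adjusted p = 0.566, Fisher's exact test).

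**Figure D5:**
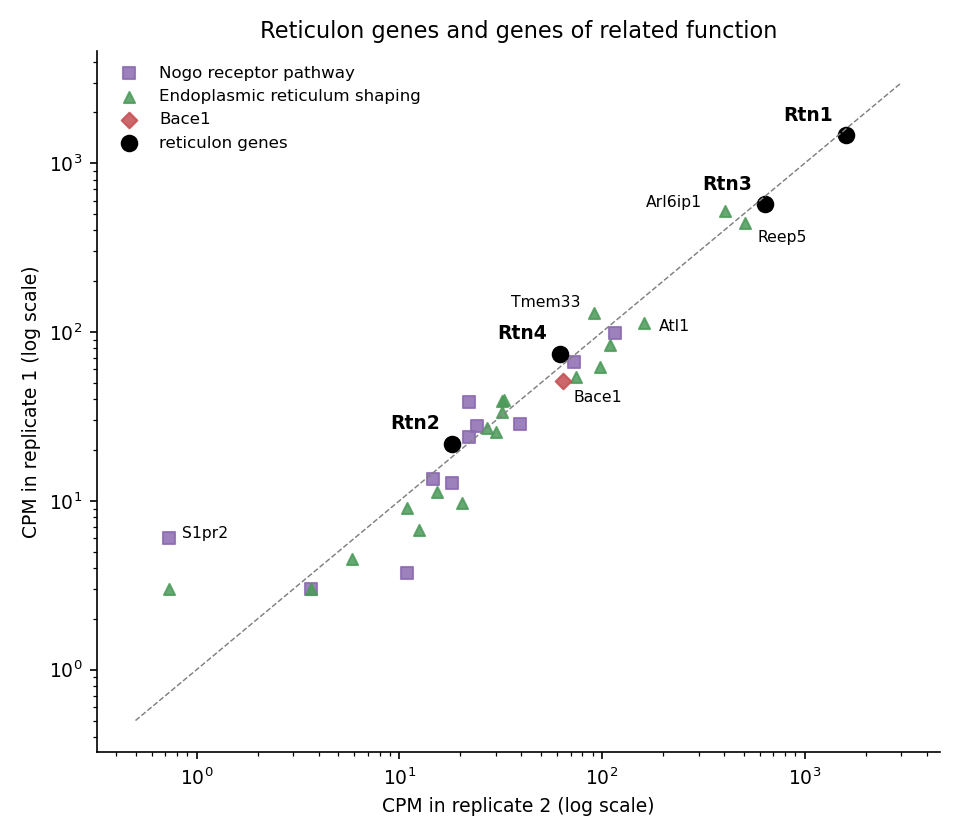
CPM in replicate 1 against CPM in replicate 2, both on log axes, for the 4 reticulon genes, 11 of the 12 genes of the Nogo receptor pathway (Pirb, at 0 reads in replicate 2, cannot be drawn), 19 genes that shape the endoplasmic reticulum and Bace1. The dashed line marks equal levels, and the reticulons lie near it, Rtn1 and Rtn3 slightly below and Rtn2 and Rtn4 slightly above.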

How the data were processed

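Per the labels, the samples are 2 long-read RNA libraries of hippocampus. The deposited tables hold raw counts of reads per transcript model, with each model's exons in deposited annotations, made by the authors with TALON on mm10 and GENCODE M21, per the file headers and description files. The sources used here give no aligner, platform, TALON version, filter or strand setting. Checksums matched for 2 of 2 count tables. Incomplete matches follow part of an annotated transcript, and the genomic class holds reads that overlap a gene without following its splicing.

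Gene counts were summed over all classes and divided by all reads for CPM (the floor of 3 reads is 2.26 CPM in replicate 1 and 2.20 CPM in replicate 2). Models were matched by intron chain. Reads beginning in an exon were counted by the donor of their first intron, the last base of that exon. Differences were tested with two-sided Fisher's exact tests over all genes with at least 10 reads over both libraries. Models and first donors were tested with at least 20 reads of the gene in each library and 10 of their own over both. Internal exons were tested with at least 10 reads over both libraries that held the exon and 10 that skipped it. Benjamini-Hochberg adjustment was used at 0.05 (Python 3.11.15, scipy 1.17.1). Alternatives used edgeR 4.0.16 (exact test, TMM) and DESeq2 1.42.0 size factors, other filters, classes and single replicates. The tests were tried on simulated data. The members and gene lists were chosen with earlier results of these data known. Named models have at least 10 reads over both libraries or are annotated, and named list genes are the 3 of highest mean CPM and those called, with for each member the 2 genes nearest in log2(CPM + 1). Rtn4r, Rtn4rl1, Rtn4rl2, Ngfr, S1pr2 and Pirb were chosen after their values were seen. Annotated transcripts share at most 1.76% of their 25-base words with any other gene.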

Additional observations from a re-analysis of the deposited data

Results flagged for a closer look

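Reads on the strand opposite to a reticulon gene, within its bounds, entered none of the comparisons. Rtn1 had 152 such reads in replicate 1 and 75 in replicate 2, of which 151 and 73 were unspliced and lay over the bases of the last exon that also held the unspliced reads of the gene's own strand (240 and 132). Rtn3 had 69 and 16, mostly assigned to 2700081O15Rik (60 and 5 reads on a pair of models in replicate 1 and 13 reads in replicate 2), a gene of the opposite strand that overlaps its end by 4 bases. Rtn4, whose end overlaps the opposite-strand gene Eml6 by 1284 bases, had 12 in each library, and Rtn2 had 0. All of these but Rtn2 lie above the floor of 3 reads, which is why they are given. Without a stated strand setting, reads of a gene and of its opposite strand cannot be told apart for certain.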

How the results depend on the processing

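Of the 98 values of member differences under the alternatives, 91 kept their direction and their side of the threshold, 5 changed sign, 1 lost its call and 1 gained one. Settings that changed only the filter on low counts left each difference as it was, so its direction could not change there. Items absent from the main tests or from an alternative are not among the 98, such as the called unspliced share of Rtn1. Of the 90 levels, counts and shares, 61 stayed within their limits and 29 moved. For levels and shares the limit was the SD between the libraries around their mean. Without the genomic class and incomplete matches, mean CPM was 7.12 for Rtn2, 541 for Rtn3 and 18.4 for Rtn4, and the log2 ratio of Rtn1, of -0.17, was called (adjusted p = 0.0192). With spliced reads alone, chosen after seeing the data, mean CPM was 1782 for Rtn1, 24.8 for Rtn2 and 37.2 for Rtn4, and 401 genes were called, against 50 by edgeR's exact test and 707 by Fisher's exact test. Called model shares numbered 663, against 52 without incomplete matches and 87 among spliced reads, and 113 genes were called when unspliced reads of any class were tested as 1 item per gene. Called first donors numbered 61, against 21 without incomplete matches. The difference in the Rtn3-203 share turned to 2.36 percentage points without incomplete matches and was -0.38 among spliced reads (adjusted p = 1 in both), since the unspliced reads classed as incomplete matches then leave the total. The other 4 changes of sign were in Rtn3 differences that were called in no setting (adjusted p = 1 under each of these alternatives). Rtn3-202 stood at -0.15 percentage points, against 0.90 without incomplete matches and 0.68 among spliced reads. The model that ends in the long exon stood at -0.53, against 0.11 among spliced reads. The first exon stood at -2.13, against 0.62 without incomplete matches. Mean shares of spliced reads without incomplete matches, and with annotated transcripts alone, were 93.4% and 94.5% for the first exon of Rtn1-C, 5.95% and 5.48% for the exons of Rtn1-A, 11.4% and 11.3% for the 57-base exon of Rtn3, and 99.7% and 100% for its first exon. They were 89.3% and 100% for the first exon of Nogo-C, 10.7% and 0% for the long exon of Rtn4, and 50% in both settings for each first exon of Rtn2. With annotated transcripts alone the upstream first exons of Rtn4 had 0%. These settings remove the incomplete reads by construction. Levels and shares without replicate 1 or replicate 2 are part of the 61 by construction. Each of 2 values always lies within 1 SD of their mean, so these settings test nothing. No paired analysis was possible because there is 1 group, and the only comparison is between its 2 libraries. Depth limits Rtn2 and Rtn4, with at most 41 spliced reads a library.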

Other observations

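Unannotated spliced models of the reticulons were mostly read in a single library. Rtn1 had 22 of them by intron chain, with 22 reads in replicate 1 and 35 in replicate 2, and 4 occurred in both libraries. Rtn3 had 16, with 5 and 14 reads, of which 1 occurred in both libraries. Rtn4 had 4, with 2 and 3 reads, and Rtn2 had 0. A model with 1 read can occur in no more than 1 library, so these counts do not measure reproducibility. Among models of any class by intron chain, 23 of 40 in Rtn1, 21 of 41 in Rtn3 and 6 of 18 in Rtn4 had 1 read.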
